A study of Ovis aries with 8 samples.

Results

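Neurons and other cells switch on many genes within a short time of electrical activity, calcium entry or cyclic AMP signalling. The genes described here are 34 transcripts listed as such response genes, and whether each of them is induced in this tissue was not tested. They were chosen by symbol from a list, and each of the 34 had exactly 1 row among the 33609 genes of the deposited count table and enough reads to be among the 18193 genes tested. The samples were pools of mediobasal hypothalamus RNA from adult Ile-de-France ewes that were either food-restricted or fed ad lib (well fed), with 4 pools of 15 ewes in each group and 60 ewes per group gathered over 2 years. The sources used here do not give how long or how severely feed was restricted, which year a pool came from, or whether an ewe entered more than 1 pool, and n counts pools throughout. The labels call the pools replicates, so a p-value measures the spread between mixes of RNA and not between single ewes. Among the members, GEM, FOSB, NR4A3, CREM and PDE10A were named as lower when the list was drawn up, with earlier results of these data known, so their low values are described here and are not independent evidence.

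As background, firing of a neuron and hormones that act through cyclic AMP converge on protein kinases that phosphorylate CREB, serum response factor partners and other waiting transcription factors. These switch on a first wave of genes with no need for new protein. That wave encodes transcription factors of the AP-1 (FOS and JUN), EGR and NR4A families, and also the phosphatases, kinases, phosphodiesterases and repressors that shut the same signals off. In the hypothalamus, FOS is the gene most often used to mark neurons that have recently been active, including the arcuate neurons that respond to hunger.

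None of the 34 members passed over all genes (edgeR quasi-likelihood test, Benjamini-Hochberg adjusted p = 1 for each), where 0.00550% of all genes tested, AGRP alone, passed. At an unadjusted edgeR p under 0.05, 5 members were lower with food restriction and 2 were higher, beside 1.03% of all genes that were lower and 0.671% that were higher. The 5 lower members, 14.7% of the list, were the named GEM, FOSB, NR4A3, CREM and PDE10A, and the 2 higher ones were SIK1 and KLF10. For 4 members (GEM, FOSB, NR4A3 and CREM) the highest food-restricted pool was under the lowest well-fed one, and no member had the opposite pattern, against 1.10% of all genes lower without overlap and 0.495% higher without overlap. Of the 34 members 22 had a positive and 12 a negative log2 fold change (food-restricted minus well fed), with a median of 0.05 where the median of all genes tested was 0.01. In bulk tissue, fewer cells that express a gene and less RNA per cell cannot be told apart.

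GEM encodes a small GTP-binding protein, induced by activity and cyclic AMP, that holds back voltage-gated calcium channels. Its level was 11.3, 15.0, 9.78 and 11.9 CPM (read counts relative to library size, scaled by TMM) in food-restricted pools 1 to 4 and 22.8, 21.8, 19.1 and 17.9 CPM in well-fed pools 1 to 4. The highest food-restricted pool thus lay below the lowest well-fed pool. The log2 fold change was -0.77 (SE 0.16), or 1.71-fold higher in the well-fed group, the largest decrease among the members. With log2 CPM permuted between the pools, the exact two-sided p was 0.0286, the smallest that 4 pools against 4 allow. The unadjusted edgeR p of 0.000722 ranked 6 among 18193 genes. Groups that do not overlap always give this exact p. GEM, FOSB, NR4A3, CREM and PDE10A were named as lower with values known, so their p-values and ranks are descriptions and no independent evidence.

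FOSB, an AP-1 subunit whose short and long-lived protein form, made by alternative splicing, builds up with repeated stimulation, came next by size. FOSB stood at 8.22, 8.36, 6.70 and 9.08 CPM in food-restricted pools 1 to 4 and at 12.4, 12.4, 13.3 and 13.3 CPM in well-fed pools 1 to 4. The well-fed pools were tightly grouped (12.9 ± 0.521 CPM, SD, n = 4) and all lay above every food-restricted pool. The log2 fold change was -0.67 (SE 0.15), with an exact permutation p = 0.0286 and an edgeR p that ranked 7 among the genes tested. Counts per gene do not separate the splice forms.

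NR4A3 is the third of the orphan nuclear receptors of the NR4A family, which act as transcription factors without a known classical ligand. NR4A3 was at 15.4, 15.0, 17.5 and 16.3 CPM in food-restricted pools 1 to 4 and at 24.9, 24.4, 18.9 and 23.8 CPM in well-fed pools 1 to 4. Well-fed pool 3 was low for its group yet still above every food-restricted pool. The log2 fold change was -0.52 (SE 0.14), with an exact permutation p = 0.0286.

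CREM encodes activators and repressors that bind the cyclic AMP response element, among them the inducible repressor ICER, which is started from an internal promoter and cannot be read apart from the other forms in these counts. CREM was at 49.1, 43.4, 52.3 and 43.9 CPM in food-restricted pools 1 to 4 and at 65.1, 69.9, 56.8 and 65.5 CPM in well-fed pools 1 to 4, again with no overlap. The log2 fold change was -0.45 (SE 0.11), with an exact permutation p = 0.0286 and a spread between pools that was among the smallest of the members (within-group SD 0.13 on the log2 scale).

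PDE10A, a phosphodiesterase that breaks down cyclic AMP and cyclic GMP, was the 1 lower member whose groups overlapped. It was at 32.1, 36.7, 51.9 and 43.8 CPM in food-restricted pools 1 to 4 and at 48.8, 63.6, 61.7 and 55.8 CPM in well-fed pools 1 to 4, so that food-restricted pool 3 lay above well-fed pool 1. The log2 fold change was -0.48 (SE 0.16), with an exact permutation p = 0.0571 and an unadjusted edgeR p of 0.0127. PDE10A is best known from neurons of the striatum. The 14 tested striatal markers together gave between 466 and 512 CPM in the food-restricted and between 462 and 499 CPM in the well-fed pools, with 7 markers higher and 7 lower and a median log2 fold change of 0.01. Of these, DRD1 was between 5.79 and 10.3 CPM and DRD2 between 3.94 and 6.55 CPM. The part of striatal cells in the level of PDE10A was not tested.

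**Figure D1:**
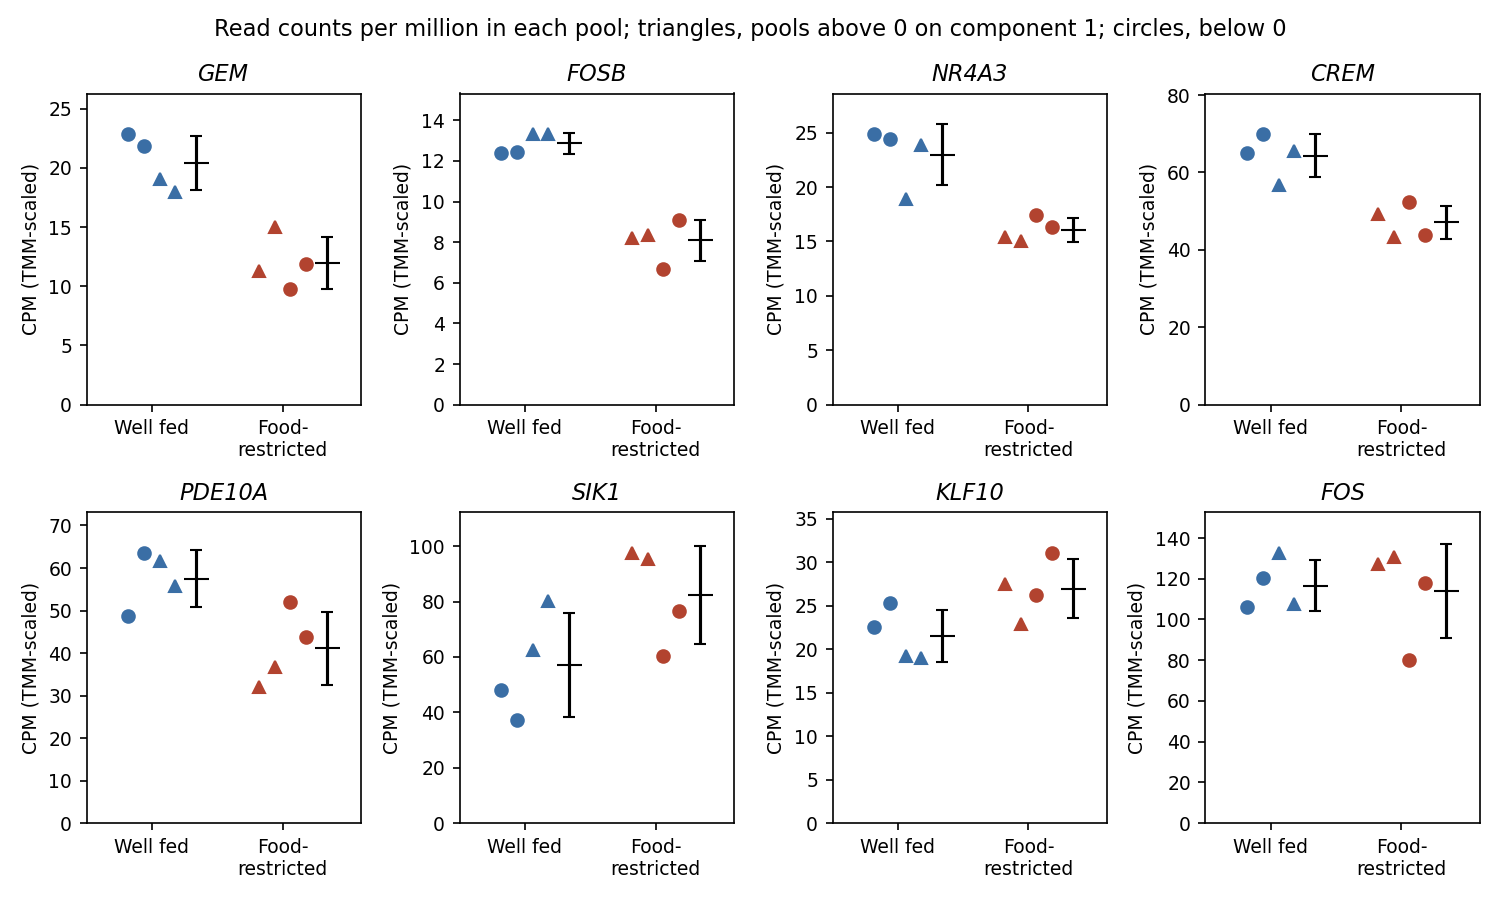
Level (CPM, TMM-scaled, linear axis from 0) of 8 members in each of the 4 well-fed (blue) and 4 food-restricted (red) pools, with mean ± SD of each group in black. Triangles and circles mark pools above and below 0 on principal component 1. The groups do not overlap for GEM, FOSB, NR4A3 and CREM and overlap for PDE10A, SIK1, KLF10 and FOS.

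The members with the opposite sign were less clear of their spread. SIK1 encodes a kinase induced by cyclic AMP that keeps CREB coactivators out of the nucleus. It was at 97.7, 95.2, 60.2 and 76.5 CPM in food-restricted pools 1 to 4 and at 48.0, 37.4, 62.5 and 80.4 CPM in well-fed pools 1 to 4, with overlapping groups. The log2 fold change was 0.53 (SE 0.23), with an exact permutation p = 0.143 and an unadjusted edgeR p of 0.0453. KLF10, a zinc finger factor induced by transforming growth factor beta and other signals, was at 27.5, 22.9, 26.2 and 31.1 CPM in food-restricted pools 1 to 4 and at 22.6, 25.3, 19.2 and 18.9 CPM in well-fed pools 1 to 4. Its groups overlapped through food-restricted pool 2. Its log2 fold change was 0.33 (SE 0.15), with an exact permutation p = 0.0571 and an unadjusted edgeR p of 0.0492. Either gene kept an unadjusted edgeR p under 0.05 in 2 of the 8 fits that each left out 1 pool. For SIK1 these left out food-restricted pool 3 and well-fed pool 4, and for KLF10 pool 2 of either group. With each of the other 6 pools left out, p was between 0.0538 and 0.126 for SIK1 and between 0.0612 and 0.128 for KLF10.

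Among the other AP-1 subunits, FOS itself was at nearly the same level in both groups. FOS was at 127, 131, 80.0 and 118 CPM in food-restricted pools 1 to 4 and at 106, 120, 133 and 107 CPM in well-fed pools 1 to 4. Food-restricted pool 3 was the lowest of all 8, and the log2 fold change was -0.03 (SE 0.16). FOSL2, a FOS-related partner of JUN proteins, averaged 21.8 ± 4.88 CPM with food restriction and 27.7 ± 3.48 CPM in the well-fed pools (SD, n = 4 per group). Its log2 fold change of -0.35 (SE 0.17) had an unadjusted edgeR p of 0.0709. With 1 pool left out, p was 0.0113 without food-restricted pool 3 and over 0.05 in the other 7 fits, up to 0.197 without food-restricted pool 1. The JUN subunits JUN (0.03, SE 0.42), JUNB (0.27, SE 0.58) and JUND (0.11, SE 0.34) had log2 fold changes well inside their errors.

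The EGR zinc finger factors, which are induced through serum response factor, did not differ beyond the spread of the pools. EGR1 was at 53.1 ± 14.2 against 52.8 ± 11.4 CPM, and its log2 fold change was 0.01 (SE 0.21). The log2 fold changes of EGR2, EGR3 and EGR4 were 0.00 (SE 0.25), -0.10 (SE 0.17) and 0.02 (SE 0.30). Among the NR4A receptors, NR4A1 was at 51.5 ± 15.9 against 42.5 ± 12.2 CPM (log2 fold change 0.28, SE 0.26) and NR4A2, which is also needed for dopamine neurons, at 22.8 ± 1.54 against 23.9 ± 3.31 CPM (-0.07, SE 0.14).

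Of the 10 other induced transcription factors, 8 had a positive log2 fold change, and KLF10 alone had an unadjusted p under 0.05. ATF3, a stress-induced factor, was at 8.40 ± 2.36 against 6.26 ± 1.32 CPM (log2 fold change 0.43, SE 0.23), with food-restricted pool 1 the highest at 11.6 CPM. NPAS4, which responds to calcium entry in neurons and little else, had a log2 fold change of 0.18 (SE 0.21), and IER2 and IER5 had 0.24 (SE 0.50) and 0.21 (SE 0.17). The antiproliferative BTG2 had 0.04 (SE 0.14), MAFF 0.00 (SE 0.19) and CSRNP1 -0.03 (SE 0.24). The Krüppel-like factors KLF2 and KLF4, both prominent in endothelium, had -0.06 (SE 0.41) and 0.09 (SE 0.18).

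Feedback regulators went in both directions. The MAP kinase phosphatases DUSP1, DUSP4 and DUSP6 had log2 fold changes of 0.11 (SE 0.15), 0.22 (SE 0.14) and 0.17 (SE 0.13). The cyclic AMP phosphodiesterases PDE4B and PDE4D, whose transcripts are themselves induced by cyclic AMP, had 0.05 (SE 0.13) and 0.17 (SE 0.13). The synaptic effector ARC averaged 2.60 CPM in the food-restricted and 2.44 CPM in the well-fed group (0.09, SE 0.51). BDNF, a neurotrophin, was at 15.2 ± 1.23 against 14.04 ± 1.33 CPM (0.11, SE 0.14), and its pools were among the most even of all members.

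**Figure D2:**
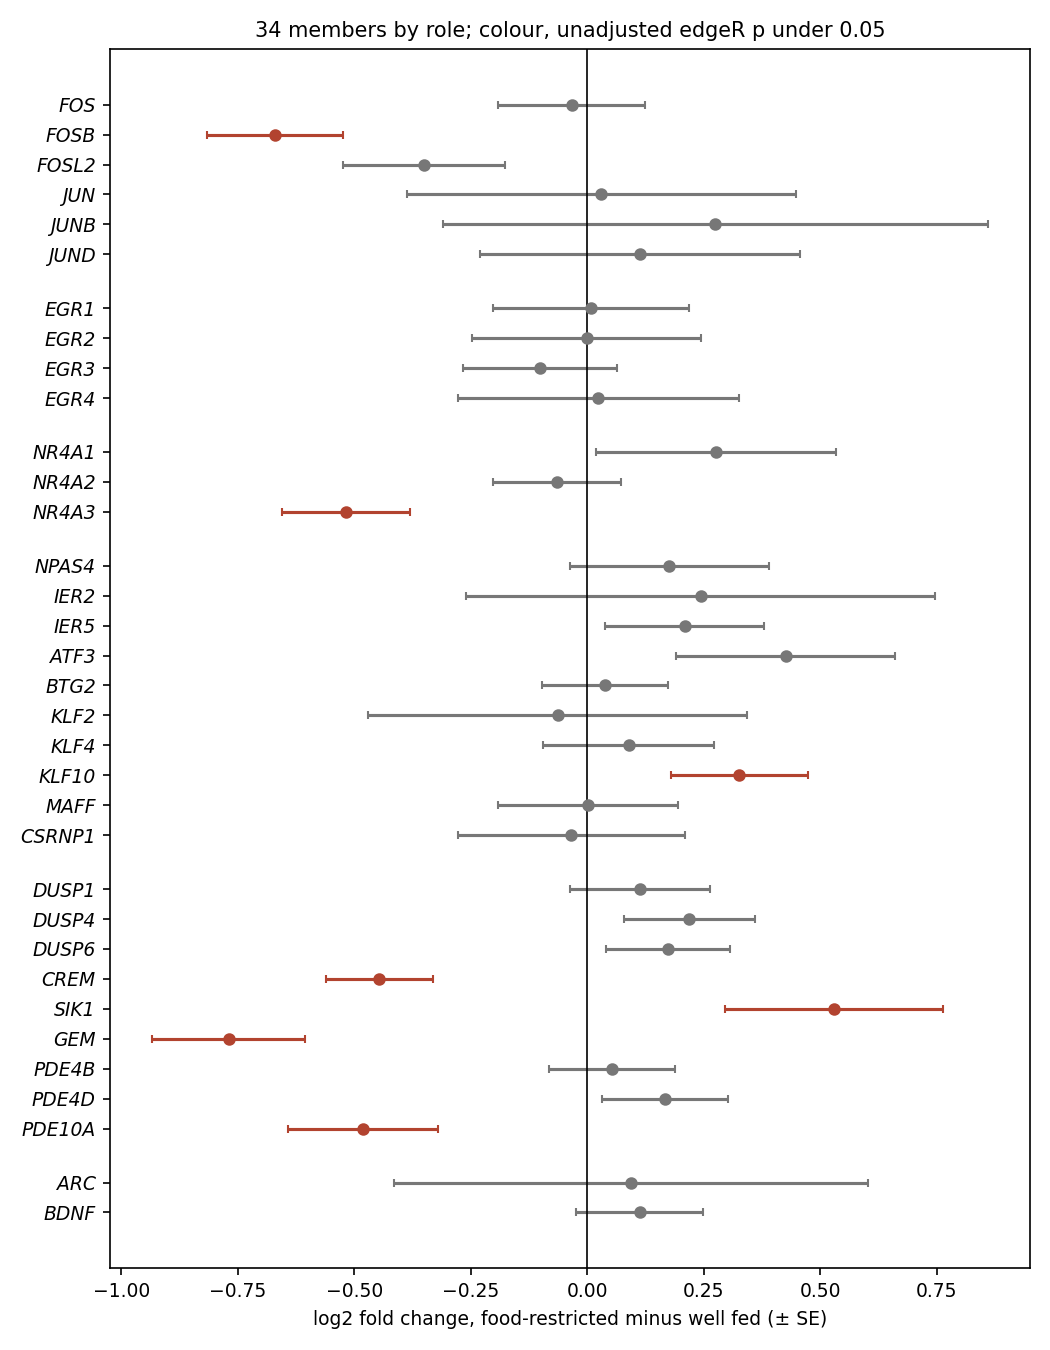
Log2 fold change (food-restricted minus well fed, ± SE from the edgeR fit) of the 34 members, from top to bottom AP-1 subunits, EGR factors, NR4A receptors, other induced transcription factors, feedback regulators and synaptic effectors. The 7 members with an unadjusted p under 0.05 are in red, with GEM lowest at -0.77 and SIK1 highest at 0.53, and the widest error bars are those of JUNB, ARC and IER2.

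Lower members were set beside relatives within pools, and CREM beside SIK1, which is not of its family but is also a feedback regulator. The measure was the ratio of the read counts of 2 members, which no scaling of the libraries can move. Since the first member of each of the 7 ratios was chosen as lower and the pairs were chosen with values known, the ratios are a description with no test. The ratio is not corrected for transcript length and is compared only between pools. FOSB to FOS was 0.0646, 0.0639, 0.0837 and 0.0771 in food-restricted pools 1 to 4 and 0.117, 0.103, 0.100 and 0.124 in well-fed pools 1 to 4. Every food-restricted ratio was below every well-fed one, and the ratio was 1.54-fold higher in the well-fed group. NR4A3 to NR4A2 ranged from 0.637 to 0.743 in the food-restricted pools and from 0.772 to 1.25 in the well-fed ones. PDE10A to PDE4D ranged from 1.01 to 1.44 and from 1.65 to 2.50. These 3 ratios did not overlap between the groups. CREM to SIK1 differed by most, with 0.601 ± 0.185 against 1.24 ± 0.484 (SD, n = 4 each), and its groups overlapped. SIK1 had the highest log2 fold change of the members, so this pair sets a lower member against the opposite extreme. The ratios of FOSB to FOSL2, NR4A3 to NR4A1 and PDE10A to PDE4B also overlapped. For FOSB to FOSL2 the ratio had a difference of -0.31 on the log2 scale, a within-group SD of 0.36, and a difference of -0.09 without food-restricted pool 3.

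**Figure D3:**
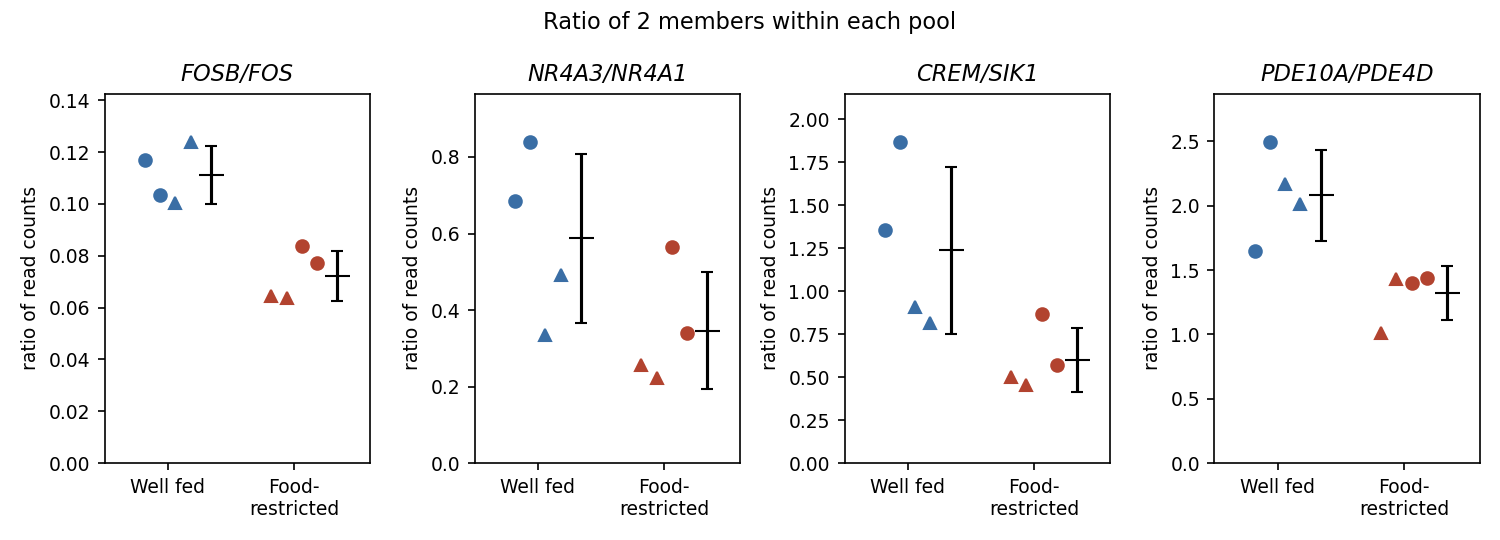
Ratio of the read counts of 2 members in each well-fed (blue) and food-restricted (red) pool, on linear axes from 0, with mean ± SD in black; triangles and circles mark pools above and below 0 on principal component 1. The groups do not overlap for FOSB/FOS and PDE10A/PDE4D and overlap for NR4A3/NR4A1 and CREM/SIK1.

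A second kind of variation, which crossed the feeding groups, was also seen in 8 of the members. Principal component 1 of the 18159 tested genes that are not members (34.6% of the variance) placed food-restricted pools 1 and 2 and well-fed pools 3 and 4 above 0 and the other 4 pools below 0. The labels do not say what sets these pools apart. For 8 members every pool above 0 was higher than every pool below 0, or 23.5% of the list where 14.2% of all genes tested had this pattern, and for no member was it reversed, against 8.93% of all genes. The 8 were JUN, JUNB, JUND, EGR2, NR4A1, IER2, KLF2 and ARC. The side of a pool was computed from these same libraries, so it is a description and not a group of the study. Which side counts as above 0 was set so that JUNB, a member, was higher there. The direction of these shares was thus set by a member, and the shares are no test.

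JUNB showed this most. It was at 60.9 and 77.7 CPM in food-restricted pools 1 and 2 and at 64.5 and 57.9 CPM in well-fed pools 3 and 4, but at 15.3 and 29.3 CPM in food-restricted pools 3 and 4 and at 12.98 and 16.04 CPM in well-fed pools 1 and 2. The mean of the pools above 0 was 3.70-fold that of the pools below 0 (geometric means). IER2 followed at 3.01-fold, ARC at 2.52-fold, JUN at 2.42-fold and KLF2 at 2.19-fold. JUND was 1.83-fold, NR4A1 1.63-fold and EGR2 1.37-fold higher in the pools above 0. The 5 lower members had ratios between 0.871 and 1.07 across the same division.

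The within-group SD on the log2 scale was 0.39 to 1.14 for the 8 members and 0.13 to 0.25 for the 5 lower ones, a contrast that the choice of both sets favours. With the side of the component as a block in edgeR, the SE of the log2 fold change of JUNB went from 0.58 to 0.18. Its log2 fold change was then 0.39, with an unadjusted edgeR p of 0.0418 (adjusted p = 0.991). JUNB was picked as the member that this side divides most, so the smaller SE follows from that choice and the p is no independent evidence. The SE of SIK1 went from 0.23 to 0.12, at a log2 fold change of 0.56 (edgeR adjusted p = 0.446). Within the pools above 0, SIK1 was 1.36-fold higher with food restriction, and within those below 0 it was 1.601-fold higher. Over all 8 pools its groups overlapped. Each side holds only 2 pools per group, so the values by side are a description with no test. FOSB was 0.623-fold and 0.629-fold of its well-fed level on the 2 sides, CREM 0.758-fold and 0.710-fold, NR4A3 0.718-fold and 0.686-fold, GEM 0.704-fold and 0.483-fold, and PDE10A 0.586-fold and 0.856-fold. No member passed over all genes with this block either (lowest edgeR adjusted p = 0.267, GEM).

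Marker lists were also set beside this division of the pools. Their genes were among those from which the component was computed, so a difference between the sides is partly built in. Over all genes tested, the median ratio of the pools above 0 to those below 0 was 0.966. The mean log2 level of 10 endothelial markers was higher by 0.38 in the pools above 0, that of 12 pituitary and pars tuberalis markers by 0.35, and that of 12 markers of the mediobasal hypothalamus itself, among them POMC, by 0.71. Other lists were higher there too, with 0.73 for 2 red blood cell markers and 0.23 for 14 striatal markers. The difference was 0.15 for 10 astrocyte and oligodendrocyte markers and 0.11 for 8 microglia and macrophage markers. The 11 general neuron markers differed by 0.00063. The part of these cells in the division of JUNB, IER2, KLF2 and the others was not tested.

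**Figure D4:**
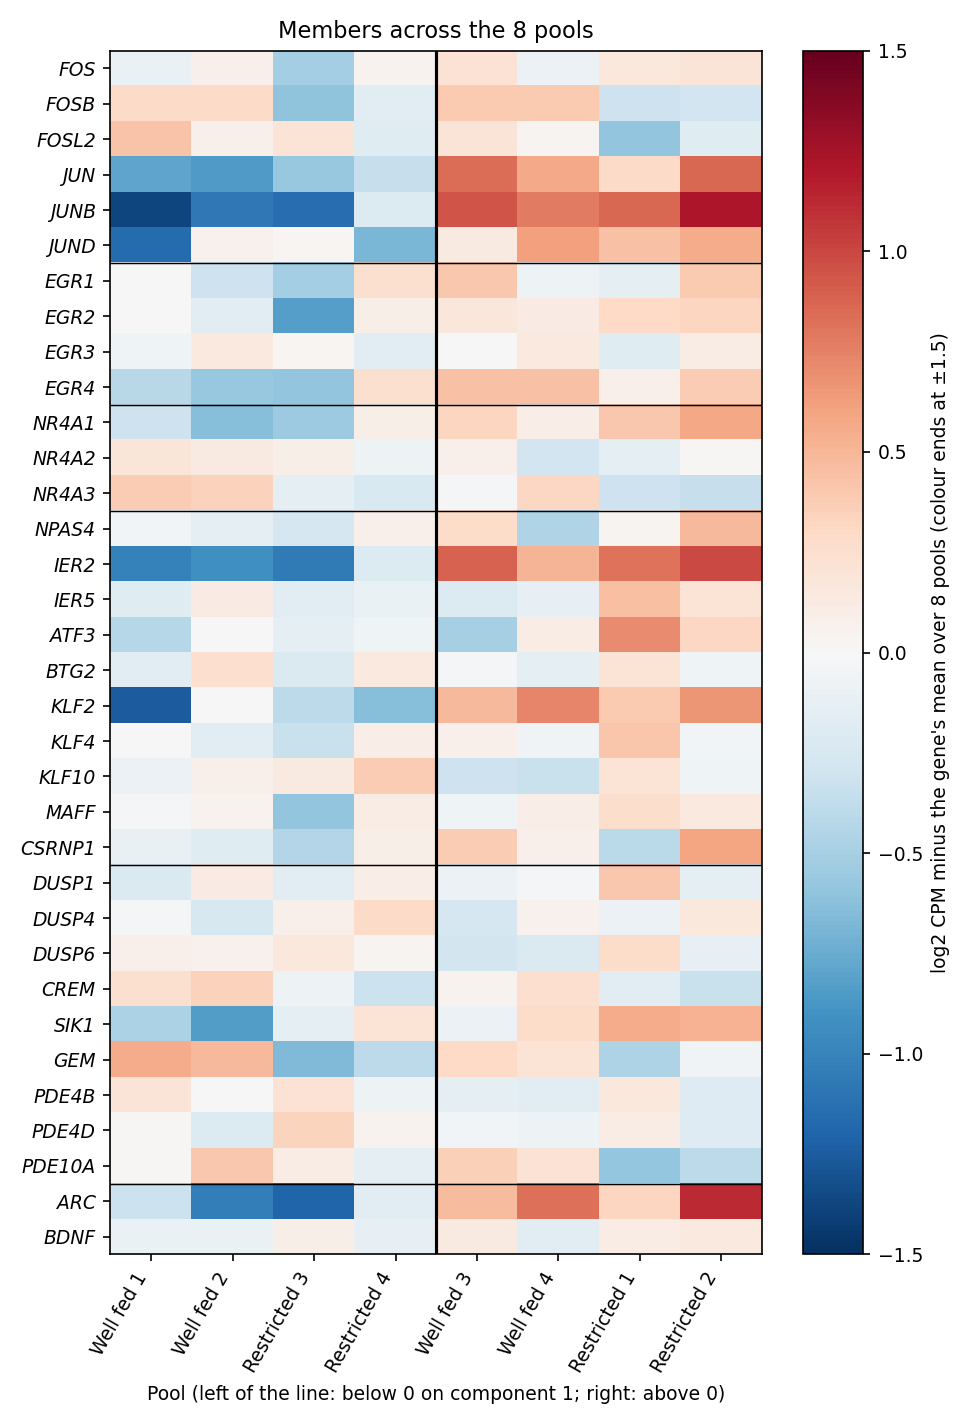
Log2 CPM of each of the 34 members minus its mean over the 8 pools (colour, ends at ±1.5), with members in the same order as in the plot of fold changes and pools divided by the side of principal component 1. JUN, JUNB, IER2 and ARC are blue on the left and red on the right in both feeding groups, as is KLF2 apart from well-fed pool 2, which is close to white. GEM, FOSB, NR4A3 and CREM are blue in nearly all food-restricted and red in nearly all well-fed pools. Close to white are NR4A3 and CREM in well-fed pool 3, GEM in food-restricted pool 2 and CREM in food-restricted pool 3.

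**Figure D5:**
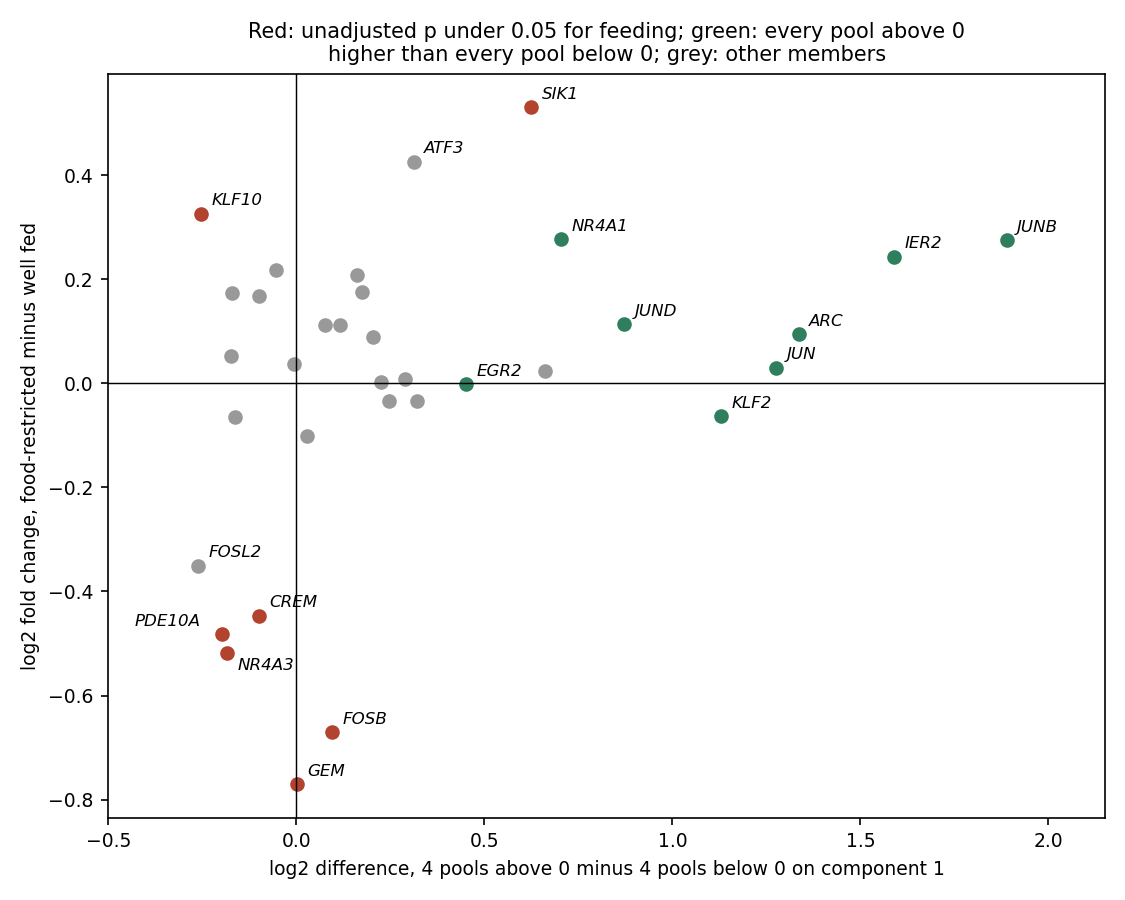
For each member, the log2 difference between pools above 0 and pools below 0 on principal component 1 (horizontal, 4 pools each) and the log2 fold change with food restriction (vertical); red marks an unadjusted p under 0.05 for feeding and green the 8 members divided by the component. JUNB, at 3.70-fold, lies farthest to the right with a small feeding difference, while GEM, FOSB, NR4A3, CREM and PDE10A lie low and near 0 on the horizontal axis.

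Genes upstream of the members were counted beside the shares over all genes, 1.03% lower and 0.671% higher at an unadjusted p under 0.05, at which lists of this size hold few such genes or none. Of 25 tested genes for adenylyl cyclases, protein kinase A subunits and related cyclic AMP proteins, none had an unadjusted p under 0.05, with 14 higher and 11 lower and a median log2 fold change of 0.02. None of 22 CREB, CRTC and serum response factor genes (median -0.01) and none of 23 calcium and MAP kinase genes (median 0.03) had one either. The other 15 cyclic nucleotide phosphodiesterases had 13 lower and 2 higher (median -0.13). PDE3A, which is inhibited by cyclic GMP, was the 1 with an unadjusted p under 0.05, at 26.7 ± 8.32 against 36.2 ± 2.08 CPM (log2 fold change -0.44, SE 0.19).

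Of 30 further induced regulators outside the list, 19 were lower and 11 higher (median -0.15). DUSP5, a nuclear MAP kinase phosphatase, was the 1 with an unadjusted p under 0.05, at 1.07 ± 0.455 against 2.07 ± 0.581 CPM. Among 26 late effectors of neuronal activity, 16 were lower and 10 higher (median -0.11), and 3 were lower at an unadjusted p under 0.05, or 11.5%, against the 1.03% over all genes. These were PCSK1, a convertase that processes neuropeptide precursors (301 ± 29.3 against 364 ± 27.3 CPM, log2 fold change -0.28, SE 0.10), the synaptic pentraxin NPTX2 (45.5 ± 5.32 against 56.5 ± 6.89 CPM) and RGS2, a brake on G protein signalling (68.5 ± 9.61 against 86.4 ± 14.2 CPM). The groups overlapped for all 3. The 26 together gave between 3057 and 3484 CPM in the food-restricted and between 3535 and 3679 CPM in the well-fed pools, of which the granule protein SCG2 made up 62.7%.

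Some markers that are not members also differed between the feeding groups. Of 11 tested glucocorticoid-induced genes 9 were lower with food restriction, where 8561 of all 18193 genes were lower. Of the 11, 4 had an unadjusted p under 0.05 (FKBP5, ZBTB16, CDKN1A and PDK4), or 36.4% against 1.03% over all genes, and the 11 together gave between 840 and 914 CPM against between 1007 and 1070 CPM. Of the microglia and macrophage list, MRC1, a marker of perivascular macrophages, was at 1.44 ± 0.181 against 2.68 ± 0.341 CPM without overlap, although the 8 markers together overlapped (414 to 452 against 383 to 482 CPM). Haemoglobin beta (HBB) was at 0.497 ± 0.363 against 2.00 ± 1.21 CPM, also without overlap and with 0 counts in food-restricted pool 3. AHSP, the other red blood cell marker tested, was at 0.495 ± 0.140 against 0.404 ± 0.226 CPM with overlap. ALAS2 and SLC4A1 were listed at 0 in all pools. Their part in the lower levels of GEM, FOSB, NR4A3, CREM and PDE10A was not tested. The summed general neuron (2872 to 3473 against 2867 to 3192 CPM), astrocyte and oligodendrocyte, endothelial and pituitary markers overlapped between the groups. All 12 markers of the mediobasal hypothalamus had enough reads to be tested. Of these, AGRP, the hunger peptide of the arcuate nucleus, rose (155 ± 25.9 against 50.7 ± 10.1 CPM, edgeR adjusted p = 0.0296), and TAC3 was at 115 ± 8.78 against 146 ± 23.6 CPM. Of the 12 tested pituitary and pars tuberalis markers, 7 were lower and 5 higher, with a median log2 fold change of -0.03. EYA3, a marker of the pars tuberalis under long days, was the 1 with an unadjusted p under 0.05, at 161 ± 11.6 against 120 ± 13.4 CPM.

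The depth was between 36192025 and 48125991 counts per pool, and the lowest count of any member in any pool was 41 (ARC), so counting error was small beside the spread between pools for most members.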

How the data were processed

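Gene counts were measured by RNA sequencing of 8 pools (stranded TruSeq mRNA libraries, per the labels' protocols). The authors deposited raw counts per gene, 1 column per pool. The submitters' processing notes name featureCounts 2.0.0 as well as TopHat2 2.1.1 with Bowtie2 2.3.5.1, and also SAMtools 1.9, FastQC and bcl2fastq 2.20. The sources used here give no genome build, annotation or strand setting, so overlapping genes are uncertain and no coordinates or sequences are printed.

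Counts were filtered with filterByExpr (minimum count 10, minimum total 15), scaled by TMM and tested with edgeR 4.0.16 (quasi-likelihood F test, no covariate, Benjamini-Hochberg adjustment over 18193 genes, threshold 0.05) in R 4.3.3, after the fit was tested on simulated data. The SE was taken from the fold change and the F statistic (|log2 fold change| over √F). Log2 CPM used a prior count of 2. Alternatives used DESeq2 1.42.0, limma 3.58.1 and sva 3.50.0. Symbols came from the table, and LOC names in the lists from RefSeq (ARS-UI_Ramb_v3.0, which held 83.6% of the IDs). Of 246 entries in 15 other lists, 235 had a row. No pool repeated another within sampling noise (chi-square over its degrees of freedom was 25.0 or more within groups), so each counted as a replicate. Figures were drawn with Python 3.11.15.

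The members, lists and alternatives were chosen with earlier results of these data known. All members are named. Every pool is given for the 5 lower members, FOS and any member with an unadjusted p under 0.05. From other lists, up to 4 genes per list with such a p are named. The ratios of members, JUNB and FOSL2 in detail, and SCG2 and the genes at 0, were chosen after values were seen.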

Additional observations from a re-analysis of the deposited data

How the results depend on the processing

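No member passed over all genes in any of the 19 alternatives. GEM, FOSB, NR4A3, CREM and PDE10A kept their sign and an unadjusted p under 0.05 in all 19. These 5 were named as lower with values known, and the alternatives refit the same pools, so this is no independent evidence. The count of members lower at that threshold was 5 or 6. The sixth was FOSL2, in 3 alternatives: 1 surrogate variable, the side of principal component 1 as a block, and food-restricted pool 3 left out. The count of members higher went from 2 to 1 with upper-quartile scaling, with library totals alone, without a low-count filter and with robust edgeR, to 0 with the replicate block and to 3 with the side of principal component 1 as a block (JUNB added), and lay between 0 and 2 with 1 pool left out. The number of genes called over all genes was 1 and became 0 with the replicate block, 4 with DESeq2, 7 with 1 surrogate variable, 6 with the side of principal component 1 as a block, and 0 without any 1 pool (0 to 0). Same-numbered pools of the 2 groups did not deviate together (correlations between -0.420 and -0.207), so this check showed no pairing by number. Same-numbered pools lie on opposite sides of principal component 1, so a weaker effect shared by number could not show in it. With the replicate block the log2 fold change of GEM was -0.78 and that of FOSB -0.68. The sign changed in at least 1 alternative for 16 members, none called and at most 0.36 in size. EGR2, at 0.00, ranged from -0.10 to 0.20 with 1 pool left out. The cause was not tested. JUNB varied 5.99-fold between pools and ARC 4.98-fold, beside log2 fold changes with an SE of 0.58 and 0.51.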
